A study of Homo sapiens with 47 samples.

Results

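Very broad domains of H3K4me3Q5ser were measured in PC3, a long-used line of human prostate cancer cells. They are the regions of at least 15000 bp among those in which the authors counted ChIP reads: 688 of 19535 regions, or 3.52% of the regions and 14.5% of their bases. The choice used the length alone, and no read count. The regions were themselves drawn from H3K4me3Q5ser, so their length may depend on that signal in the lines compared. The study's samples number 47. The lines described were PC3 cells overexpressing DDC, PC3 cells overexpressing SLC6A4 and PC3 cells with the empty vector (EV), and all 3 had been transduced. No time, clone or promoter of the constructs is given in the labels. ChIP with antibodies against H3K4me3Q5ser and H3K4me3 had 3 libraries per line, input had 3 libraries in the DDC line and 3 in EV, and polyA RNA had 3 libraries per line. Input of the SLC6A4 line is not analysed here. H3K4me3 CUT&Tag had 1 library each of PC3 cells overexpressing SLC6A4 with TGM2 knocked down (shTGM2), PC3 cells overexpressing SLC6A4 and control PC3 cells (oeCtrl).

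H3K4me3 is trimethylation of lysine 4 of histone H3, the mark of active promoters. H3K4me3Q5ser is the same tail with serotonin joined to the neighbouring glutamine, a bond that the transglutaminase TGM2 can make. DDC, aromatic L-amino acid decarboxylase, forms serotonin and dopamine from their amino acid precursors, and SLC6A4 is the transporter that brings serotonin into cells. At most genes H3K4me3 sits in a narrow peak at the transcription start, while unusually broad H3K4me3 domains are known in other cells for housekeeping genes, cell identity genes and tumour suppressors.

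The domains were 15000 to 119521 bp long with a median of 18804 bp, against 4023 bp over all regions, and 290 were at least 20000 bp, 74 at least 30000 bp and 13 at least 50000 bp. The shortest members were chr16:10934785-10949784 at DEXI and CLEC16A, 15000 bp, and chr3:49160711-49175722 at CCDC71 and KLHDC8B, 15012 bp. The longest regions left out were chr12:132682320-132697311 at POLE and PXMP2, 14992 bp, and chr2:202261408-202276397 at NOP58, 14990 bp. These lengths run on without a gap across the limit. Coordinates are in GRCh38 and gene starts are from GENCODE version 44.

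To show what kinds of promoter lie inside the domains, 5 promoters are printed for genes on which the results turn: EEF1G, an elongation factor gene in the longest domain; HOXA9, a developmental regulator in the HOXA domain; ZNF134, a zinc finger gene in the domain with the largest H3K4me3 difference in SLC6A4 cells; H2AC6, a histone gene; and FDPS, an enzyme gene of the cholesterol pathway. Each holds 250 bases before to 50 bases after the RefSeq start in GRCh38.p14, 5′ to 3′, with CG dinucleotides in capitals. They were chosen after the values of their domains were seen. In order, they lie at chr11:62573842-62574141 (minus strand), chr7:27165488-27165787 (minus strand), chr19:57613992-57614291 (plus strand), chr6:26123922-26124221 (plus strand) and chr1:155308616-155308915 (plus strand).
EEF1G: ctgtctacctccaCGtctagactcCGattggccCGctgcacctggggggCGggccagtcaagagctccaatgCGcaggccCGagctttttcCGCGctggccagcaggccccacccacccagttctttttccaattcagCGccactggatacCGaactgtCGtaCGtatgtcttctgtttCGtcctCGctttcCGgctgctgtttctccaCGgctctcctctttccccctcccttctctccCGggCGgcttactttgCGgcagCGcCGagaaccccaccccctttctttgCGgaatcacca
HOXA9: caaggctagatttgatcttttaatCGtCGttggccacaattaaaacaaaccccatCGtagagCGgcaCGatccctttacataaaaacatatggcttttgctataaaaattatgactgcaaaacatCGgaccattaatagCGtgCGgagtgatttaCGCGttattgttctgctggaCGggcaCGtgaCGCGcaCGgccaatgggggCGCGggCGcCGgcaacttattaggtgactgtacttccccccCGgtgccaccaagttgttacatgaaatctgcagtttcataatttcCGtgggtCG
ZNF134: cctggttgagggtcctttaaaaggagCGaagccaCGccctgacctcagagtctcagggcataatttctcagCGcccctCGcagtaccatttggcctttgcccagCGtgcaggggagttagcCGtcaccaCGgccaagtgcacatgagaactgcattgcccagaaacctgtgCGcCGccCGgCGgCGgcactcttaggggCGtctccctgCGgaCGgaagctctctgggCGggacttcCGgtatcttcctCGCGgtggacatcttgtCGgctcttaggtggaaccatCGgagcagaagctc
H2AC6: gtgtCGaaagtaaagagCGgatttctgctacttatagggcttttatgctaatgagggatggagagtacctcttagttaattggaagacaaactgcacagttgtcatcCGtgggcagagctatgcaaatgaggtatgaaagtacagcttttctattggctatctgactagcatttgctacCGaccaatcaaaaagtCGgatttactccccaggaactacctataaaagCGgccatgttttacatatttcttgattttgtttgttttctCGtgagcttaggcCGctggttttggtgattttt
FDPS: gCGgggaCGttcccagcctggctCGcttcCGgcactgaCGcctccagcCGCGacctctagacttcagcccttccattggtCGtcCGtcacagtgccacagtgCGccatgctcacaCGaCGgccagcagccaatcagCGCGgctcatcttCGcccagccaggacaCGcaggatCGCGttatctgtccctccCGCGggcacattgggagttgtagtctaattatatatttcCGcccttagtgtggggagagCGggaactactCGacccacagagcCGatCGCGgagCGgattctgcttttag

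The promoters of EEF1G, HOXA9, ZNF134 and FDPS held 22, 22, 21 and 27 CG dinucleotides, and that of H2AC6 held 8. Few CG were not particular to histone genes: the promoters of SOX4 and CLDN7, not printed, held 8 and 10. A script searched both strands for 4 motifs, each as exact letters. TATAAA, the core of a TATA box, was found in the printed promoters of HOXA9 and H2AC6. CCGGAAG, the core letters of an ETS factor site, was found in those of ZNF134 and FDPS. GGGCGG, a GC box, was found in those of EEF1G, ZNF134 and FDPS, and CCAAT in all of the printed ones other than ZNF134. RefSeq promoters were matched for 1170 of the 1484 protein-coding genes that start in the domains. CCGGAAG stood in 27.4% of them, against 19.8% of promoters in shorter regions and 14.4% of all 15345 promoters. CCAAT stood in 43.7%, 36.9% and 36.6% of the same 3 sets, TATAAA in 7.18%, 4.66% and 9.63% and GGGCGG in 69.5%, 72.8% and 59.2%. The median promoter held 25 CG in the domains, 27 in shorter regions and 22 over all genes. Matches of different motifs may overlap, and a match is a string of letters only.

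Most domains held several promoters. Of the 688, 677 held at least 1 gene start and 650 (94.5%) a protein-coding one, against 44.9% of shorter regions; 463 held at least 2 coding starts, 41 at least 5, and the largest number was 15. In all, 2247 genes started inside them, among them 1484 protein-coding genes, 447 lncRNAs, 81 miRNAs and 79 snoRNAs. Per megabase, however, the domains held 99.7 coding starts and shorter regions 114. An H3K4me3 peak of the authors' list lay in 684 domains (99.4%), against 62.4% of shorter regions. Shorter regions near the limit hardly differed from the domains, with a peak in 98.1% at 10 to 15 kb and 93.8% at 5 to 10 kb. Under 1 kb it was 22.2%. The median domain had 3 H3K4me3 peaks covering 19.6% of its length, and the median shorter region with a peak had 1 peak covering 31.2%. H3K4me3 peaks thus filled a smaller share of the domains than of shorter regions with a peak. Per megabase there were 145 peaks in the domains and 213 in all shorter regions, with or without a peak. GC content was 49.1% at the median (36.1% to 66.9%), against 46.8% in shorter regions. Chromosome 1 held 98 domains (14.2%, against 10.9% of all regions), chromosome 19 held 72 (10.5%, against 8.06%) and chromosome 11 held 69 (10.0%, against 5.02%).

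Several families for making and turning over proteins had a larger share of their members in the domains than coding genes in general, though they are a small part of the contents. These families were drawn up after the gene names and values of the domains had been seen, so their counts are descriptions. Of all 20046 protein-coding genes, 1484 (7.4%) started in a broad domain. That share counts genes outside every region, and 11486 started in a region of any length. Of 85 cytosolic ribosomal protein genes 31 did (36.5%), among them RPL8, RPS18 and RPLP0. Mitochondrial ribosomal protein genes gave 20 of 78 (25.6%), proteasome subunit genes 13 of 43 (30.2%) and translation initiation factor genes 15 of 56 (26.8%). Aminoacyl-tRNA synthetase genes gave only 4 of 34 (11.8%), with 31 in a region of any length, a share like that of coding genes in regions. Histone genes, which lie in clusters on chromosomes 6 and 1, gave 42 of 73 (57.5%) in only 11 domains. HOX genes gave 10 of 39 (25.6%) in 3 domains, and ZNF zinc finger genes, which lie mostly in clusters on chromosome 19, gave 48 of 515 (9.32%) in 37 domains. Of 400 olfactory receptor genes, which most tissues keep silent, 0 started in one. Of lists of regulators, 0 of 20 neuroendocrine genes matched lay in the domains, 1 of 29 epithelial adhesion and keratin genes (CLDN7), 4 of 32 AP-1 and immediate early genes (FOSL1, IER2, JUNB, MCL1), 8 of 100 developmental transcription factors (among them FOXA1, NR2F2, SOX4, TBX2, TBX3 and TFAP2A), and 4 of 27 cell cycle and tumour suppressor regulators (ARID1A, CDKN2A, CDKN2B, CDKN2C). Of 18 genes of serotonin and tryptophan handling 1 did (SLC3A2), of 26 TGF-beta and YAP targets 1 (INHBA), of 30 NF-kB factors and cytokines 2 (NFKBIE, RELA), and of 19 genes of H3K4 methylation and transglutamination 2 (KMT2D, SETD1B).

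Libraries held 13511040 to 24765380 read pairs in regions for H3K4me3Q5ser, 3429714 to 5811116 for H3K4me3 and 1394509 to 1833609 for input, so small changes were easiest to call in H3K4me3Q5ser. Longer regions hold more read pairs, so calls in either direction come more easily in the domains than in shorter regions. Shares called in the domains and over all regions thus differ in power as well as in change. ChIP replicates differed hardly more than counting error (mean chi-square per region 0.99 to 1.13, where 1 is counting error alone). Nothing in the labels says that they came from separate cultures, so p-values measure only this small spread. RNA libraries held 17284019 to 21745703 reads in genes. The labels were checked on the targets: DDC had 23, 25 and 31 reads in DDC cells, against 0, 0 and 1 in EV, and SLC6A4 had 94, 120 and 130 reads in SLC6A4 cells, against 0, 0 and 1 in EV. Both transgenes were low in reads but separated the groups. The keratins KRT8, KRT18 and KRT19 were read in every library, while KLK3 had no read, as is known for PC3. Of 12 markers of other cell types (leukocytes, endothelium, fibroblasts, erythroid cells), 10 stayed under 1 TPM (a length-scaled share of the transcripts) in every library, and the exceptions were PECAM1 (0.359 to 2.51 TPM) and HBB, with 489 reads in EV replicate 2 and 0 elsewhere.

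Before any comparison of single domains, the share of each library that fell in the 688 domains was set side by side. H3K4me3Q5ser pairs in the domains made up 16.95% ± 0.0209 in DDC cells, 17.86% ± 0.0101 in SLC6A4 cells and 15.94% ± 0.0183 in EV (SD, n = 3 each). H3K4me3 gave 13.4% ± 0.0341 in DDC cells, 14.61% ± 0.0263 in SLC6A4 cells and 13.14% ± 0.0243 in EV, and input gave 15.05% ± 0.00388 in DDC cells and 14.46% ± 0.0244 in EV. In every pair of groups the 3 libraries of one lay apart from the 3 of the other, and an exact two-sided permutation test gave p = 0.1, the smallest that 3 against 3 allow. Both lines thus had a larger share of H3K4me3Q5ser in the domains than EV, by 1.01 percentage points in DDC cells and 1.92 in SLC6A4 cells, while input of DDC cells was also larger than input of EV, by 0.586 points. Per kilobase, the H3K4me3Q5ser density in the domains was 1.21, 1.28 and 1.12 times that of shorter regions in DDC cells, SLC6A4 cells and EV. For H3K4me3 the ratio was 0.914, 1.01 and 0.894 in the same order, and for input 1.05 in DDC cells and 0.999 in EV. In EV, H3K4me3Q5ser against H3K4me3 differed by a median of 0.415 on the log2 scale over the domains and of -0.008 over all regions. The regions come from H3K4me3Q5ser, so this difference is a description. Of the domains, 92.6% were called higher, where 33.4% of all regions were, and 2.91% lower, where 35.0% were. In regions of 10 to 15 kb, 79.3% were called higher and 7.55% lower.

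The first comparison asks what DDC overexpression did to the domains. H3K4me3Q5ser was higher in DDC cells than in EV in 475 of 688 domains and lower in 119 (adjusted p under 0.05, edgeR quasi-likelihood test with Benjamini-Hochberg adjustment over 19535 regions), against 29.7% of all regions higher and 31.5% lower. The changes were small: the median was 0.124 on the log2 scale, against 0.002 over all regions, 331 domains lay within 1.1-fold of EV, and 2 were at least 1.5-fold higher (1.33% of all regions were) and 0 at least 1.5-fold lower (6.44%). H3K4me3 was higher in 156 domains and lower in 79, against 8.24% and 9.39% of all regions, with a median of 0.03. Input, which carries no antibody, was higher in 97 and lower in 31, against 2.68% and 3.61% of the regions tested, with a median of 0.069; without DDC input replicate 1 or 2, 20 or 17 were lower. Relative to H3K4me3 in the same fit, H3K4me3Q5ser was higher in 217 domains and lower in 47, against 5.15% and 9.9% of all regions, with a median of 0.088. Set against the change of input, the H3K4me3Q5ser calls numbered 75 higher and 8 lower, and the H3K4me3 calls 14 and 6. Over all regions the same calls numbered 445 and 629 for H3K4me3Q5ser, and 90 and 34 for H3K4me3. That alternative was added after the data were seen, and the shallow input libraries enter its error. In 312 domains H3K4me3Q5ser was called higher with no call for H3K4me3, in 144 both marks were higher and in 44 both were lower. These joint counts were not made over all regions. H3K4me3 libraries were shallower, so a missing H3K4me3 call does not show an unchanged mark.

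The change varied with length, as did the reads per region on which calls rest. In DDC cells the median H3K4me3Q5ser change against EV was -0.078 in regions under 1 kb, 0.119 in those of 15 to 20 kb and 0.152 in the 74 of 30 kb and over, where 85.1% were called higher. Input followed part of the way, from a median of -0.059 in the shortest class to 0.095 in the longest, where 37.8% were called higher. H3K4me3 stood at -0.081 in the shortest class and 0.018 in the longest. In SLC6A4 cells against EV the medians in the same classes were -0.365, 0.234 and 0.345 for H3K4me3Q5ser, and -0.185, 0.15 and 0.295 for H3K4me3. In regions of 10 to 15 kb, just under the limit, the H3K4me3Q5ser medians were 0.072 in DDC cells and 0.119 in SLC6A4 cells. Those of H3K4me3 were 0.039 and 0.035, and that of input in DDC cells was 0.017.

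**Figure D1:**
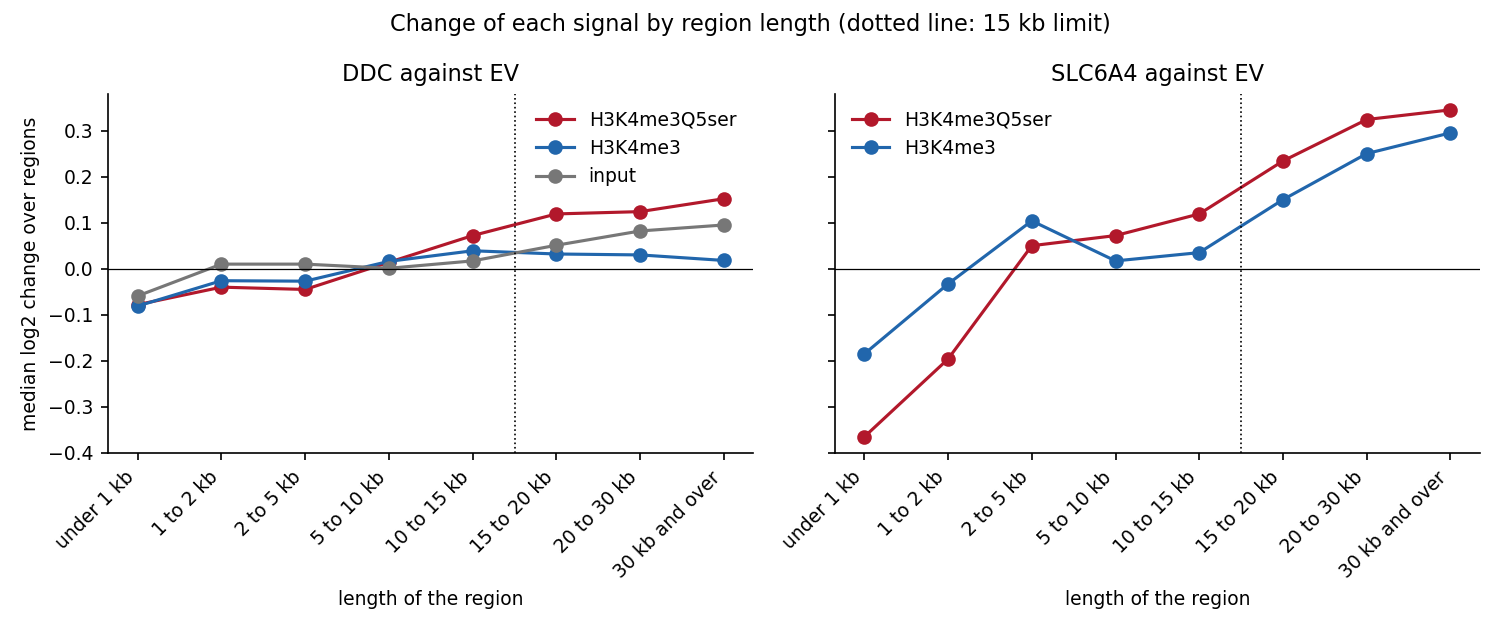
Median log2 change against EV (vertical axis) of H3K4me3Q5ser, H3K4me3 and input in 8 classes of region length (horizontal axis, the 15 kb limit dotted), for DDC cells on the left and SLC6A4 cells on the right. The H3K4me3Q5ser line reaches 0.152 in DDC cells and 0.345 in SLC6A4 cells at 30 kb and over, and input of DDC cells reaches 0.095.

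The longest domain, chr11:62568130-62687650, spans 119521 bp and 15 coding starts from EEF1G to UBXN1, with 14 H3K4me3 peaks. It includes MTA2, a subunit of the NuRD repressor complex, and GANAB, a glucosidase of glycoprotein folding. Values are read pairs scaled to the library's total in regions after TMM scaling (CPM). H3K4me3Q5ser was 1189, 1200 and 1195 CPM in DDC cells, 1294, 1304 and 1297 in SLC6A4 cells and 1036, 1039 and 1042 in EV. The 3 lines did not overlap, with SLC6A4 cells highest and EV lowest. The log2 change against EV was 0.20 ± 0.004 in DDC cells and 0.32 ± 0.003 in SLC6A4 cells (SE; adjusted p = 1.62e-73 and 7.31e-108, edgeR). Those SEs lie below counting error alone at this depth, so they and the p-values overstate the precision. H3K4me3 was 717, 746 and 737 CPM in DDC cells, 869, 871 and 846 in SLC6A4 cells and 752, 703 and 704 in EV. Here DDC cells and EV overlapped (0.03, adjusted p = 0.361, edgeR), while SLC6A4 cells lay above both. Input was 950, 950 and 965 CPM in DDC cells and 899, 868 and 914 in EV, a change of 0.09. With offsets fitted to the GC content of all regions in each library (GC offsets, an alternative added after the data were seen), the SLC6A4 change was 0.10 for H3K4me3Q5ser and 0.04 for H3K4me3, where the call was lost (adjusted p = 0.0629, edgeR).

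The next longest domains also held runs of coding genes. That of VARS1, LSM2 and the heat shock genes HSPA1L, HSPA1A and HSPA1B (chr6:31785395-31851819) changed by 0.12 in H3K4me3Q5ser in DDC cells and by 0.41 in SLC6A4 cells against EV. Relative to H3K4me3, the SLC6A4 change was 0.30 ± 0.019 (SE; adjusted p = 6.08e-39, edgeR). With GC offsets its SLC6A4 changes were 0.26 for H3K4me3Q5ser and -0.04 for H3K4me3, against 0.11 for H3K4me3 without them. The domain of CPSF1, an mRNA 3′-end processing subunit, with VPS28 and TONSL changed by 0.14 in DDC cells and 0.72 in SLC6A4 cells, and that of DENND4B to RPS27 (chr1:153933816-153997566) by 0.12 and 0.23. The SLC6A4 change of the DENND4B domain was 0.00 with GC offsets (adjusted p = 0.463, edgeR), so that this call was lost.

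HOX domains went the other way in DDC cells. HOX genes set position along the body axis in the embryo, and the HOXA domain (chr7:27143874-27209425, 65552 bp) runs from HOXA3 to HOXA13 with 19 H3K4me3 peaks, the most of any domain. H3K4me3Q5ser was 1011, 971 and 979 CPM in DDC cells, 1129, 1130 and 1142 in SLC6A4 cells and 1095, 1084 and 1105 in EV. All DDC libraries lay below all EV libraries, a log2 change of -0.15 ± 0.005 (SE; adjusted p = 7.03e-49, edgeR). H3K4me3 was 853, 865 and 833 CPM in DDC cells, 927, 927 and 943 in SLC6A4 cells and 968, 941 and 963 in EV, a change of -0.17 ± 0.020 in DDC cells (SE; adjusted p = 1.61e-14, edgeR). Input changed by -0.07 without a call. The HOXB13 domain (chr17:48714651-48743389), which holds a regulator of prostate identity, fell in DDC cells by 0.19 in H3K4me3Q5ser and by 0.17 in H3K4me3. The HOXB3 and HOXB6 domain fell by 0.33 and 0.16. All 3 HOX domains were lower in both marks in DDC cells; relative to input, H3K4me3Q5ser was called lower in 1 of the 3 and H3K4me3 in 0. In SLC6A4 cells H3K4me3Q5ser was higher in 2 and lower in 1, and H3K4me3 had no call; with GC offsets both marks were called lower in all 3. The HOXA change in SLC6A4 cells, 0.05, was -0.25 with GC offsets and -0.004 with library totals.

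Histone gene domains were lower in H3K4me3Q5ser in DDC cells in 10 of 11, with a median of -0.14, and in H3K4me3 in 2 of 11, with 1 higher. Relative to input the H3K4me3Q5ser calls in DDC cells were 0 higher and 2 lower (median -0.06), and with GC offsets 10 were lower (median -0.09). The domain with the lowest change held H3C1, H4C1, H4C2, H3C2 and H2AC4 (chr6:26019023-26038700), genes of the replication-dependent histones that package new DNA. Its H3K4me3Q5ser was 217, 213 and 207 CPM in DDC cells, 173, 170 and 169 in SLC6A4 cells and 301, 296 and 298 in EV. Both lines lay below EV, SLC6A4 cells furthest. The change was -0.49 ± 0.018 in DDC cells and -0.81 ± 0.018 in SLC6A4 cells (SE; adjusted p = 3.25e-47 and 1.89e-70, edgeR), and with GC offsets the SLC6A4 change was -0.47. H3K4me3 changed by -0.16 and -0.66, so that in DDC cells H3K4me3Q5ser fell relative to H3K4me3 by 0.32. Input of DDC cells changed by -0.21, and relative to input the H3K4me3Q5ser change in DDC cells was -0.25 (adjusted p = 0.00533, edgeR). In SLC6A4 cells all 11 histone domains were lower in both marks, with medians of -0.42 for H3K4me3Q5ser and -0.36 for H3K4me3. Their median GC content was 42.1%. With GC offsets, 8 were lower and 3 higher in H3K4me3Q5ser (median -0.13) and 8 lower in H3K4me3 (median -0.17). The printed H2AC6 promoter, with 8 CG, belongs to this group.

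Domains of ZNF genes, which encode zinc finger proteins that mostly repress transposable elements, were higher. Of 37, H3K4me3Q5ser was higher in DDC cells in 35 and lower in 2 (median 0.26), and H3K4me3 in 23 and 1 (median 0.16). Input of DDC cells was also higher, in 16 with 1 lower (median 0.19), and relative to input the H3K4me3Q5ser calls were 5 higher and 0 lower. The domain of ZNF530 and ZNF134 (chr19:57588767-57627739) had 255, 249 and 250 CPM of H3K4me3Q5ser in DDC cells, 341, 342 and 338 in SLC6A4 cells and 184, 185 and 180 in EV. Its H3K4me3 was 301, 296 and 286 CPM in DDC cells, 454, 469 and 459 in SLC6A4 cells and 195, 205 and 213 in EV. Input was 356, 398 and 366 CPM in DDC cells, against 279, 293 and 285 in EV. The groups did not overlap in any of the 3 signals. The log2 changes in DDC cells were 0.46 for H3K4me3Q5ser, 0.52 for H3K4me3 and 0.39 for input, and relative to input those of the marks were 0.10 (adjusted p = 0.339, edgeR) and 0.15 (adjusted p = 0.322). In SLC6A4 cells they were 0.90 and 1.17, and input of that line is not analysed here. Over the 37 domains in SLC6A4 cells, H3K4me3Q5ser was higher in 35 and lower in 2 (median 0.53), H3K4me3 in 34 and 1 (median 0.60), and H3K4me3Q5ser relative to H3K4me3 was higher in 5 and lower in 19. With GC offsets the SLC6A4 counts were 35 and 2 for H3K4me3Q5ser (median 0.39) and 31 and 1 for H3K4me3 (median 0.36).

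Ribosomal protein gene domains were mostly higher in H3K4me3Q5ser. It was higher in DDC cells in 24 of 30 and lower in 3 (median 0.12), H3K4me3 higher in 5 and lower in 5 (median 0.01), and H3K4me3Q5ser relative to H3K4me3 higher in 17 and lower in 0. In SLC6A4 cells the counts were 24 and 3 for H3K4me3Q5ser (median 0.42) and 22 and 4 for H3K4me3 (median 0.30). Over all 688 domains the H3K4me3Q5ser medians were 0.124 in DDC cells and 0.28 in SLC6A4 cells, so the DDC median of the ribosomal domains was that of the domains in general. Relative to input the DDC calls for H3K4me3Q5ser were 4 higher and 0 lower. With GC offsets the SLC6A4 counts were 25 and 3 for H3K4me3Q5ser (median 0.23) and 18 and 5 for H3K4me3 (median 0.12).

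Other domains stood out in DDC cells by their adjusted p. At DPF3, a chromatin reader gene, H3K4me3Q5ser was 809, 816 and 830 CPM in DDC cells, 725, 725 and 727 in SLC6A4 cells and 644, 643 and 643 in EV, and the DDC change of 0.35 was 0.22 relative to input (adjusted p = 1.85e-08, edgeR). At NRP1, the neuropilin receptor of semaphorins and VEGF (chr10:33325002-33343150), H3K4me3Q5ser was 1286, 1271 and 1284 CPM in DDC cells, 1170, 1156 and 1139 in SLC6A4 cells and 1143, 1149 and 1152 in EV. At CAMK2G, a calcium-dependent kinase gene, H3K4me3Q5ser rose by 0.29 in DDC cells while H3K4me3 fell by 0.15, a change of H3K4me3Q5ser relative to H3K4me3 of 0.45 ± 0.040 (SE; adjusted p = 1.38e-21, edgeR). At TSC22D2 both marks fell in DDC cells, by 0.36 and 0.35, and input fell by 0.50; relative to input both marks were 0.16 higher with no call. At GALK1, UNK and H3-3B, which encodes the replication-independent histone H3.3, they fell by 0.18 and 0.30 and input by 0.26, and relative to input the differences were 0.11 and -0.02 with no call.

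**Figure D2:**
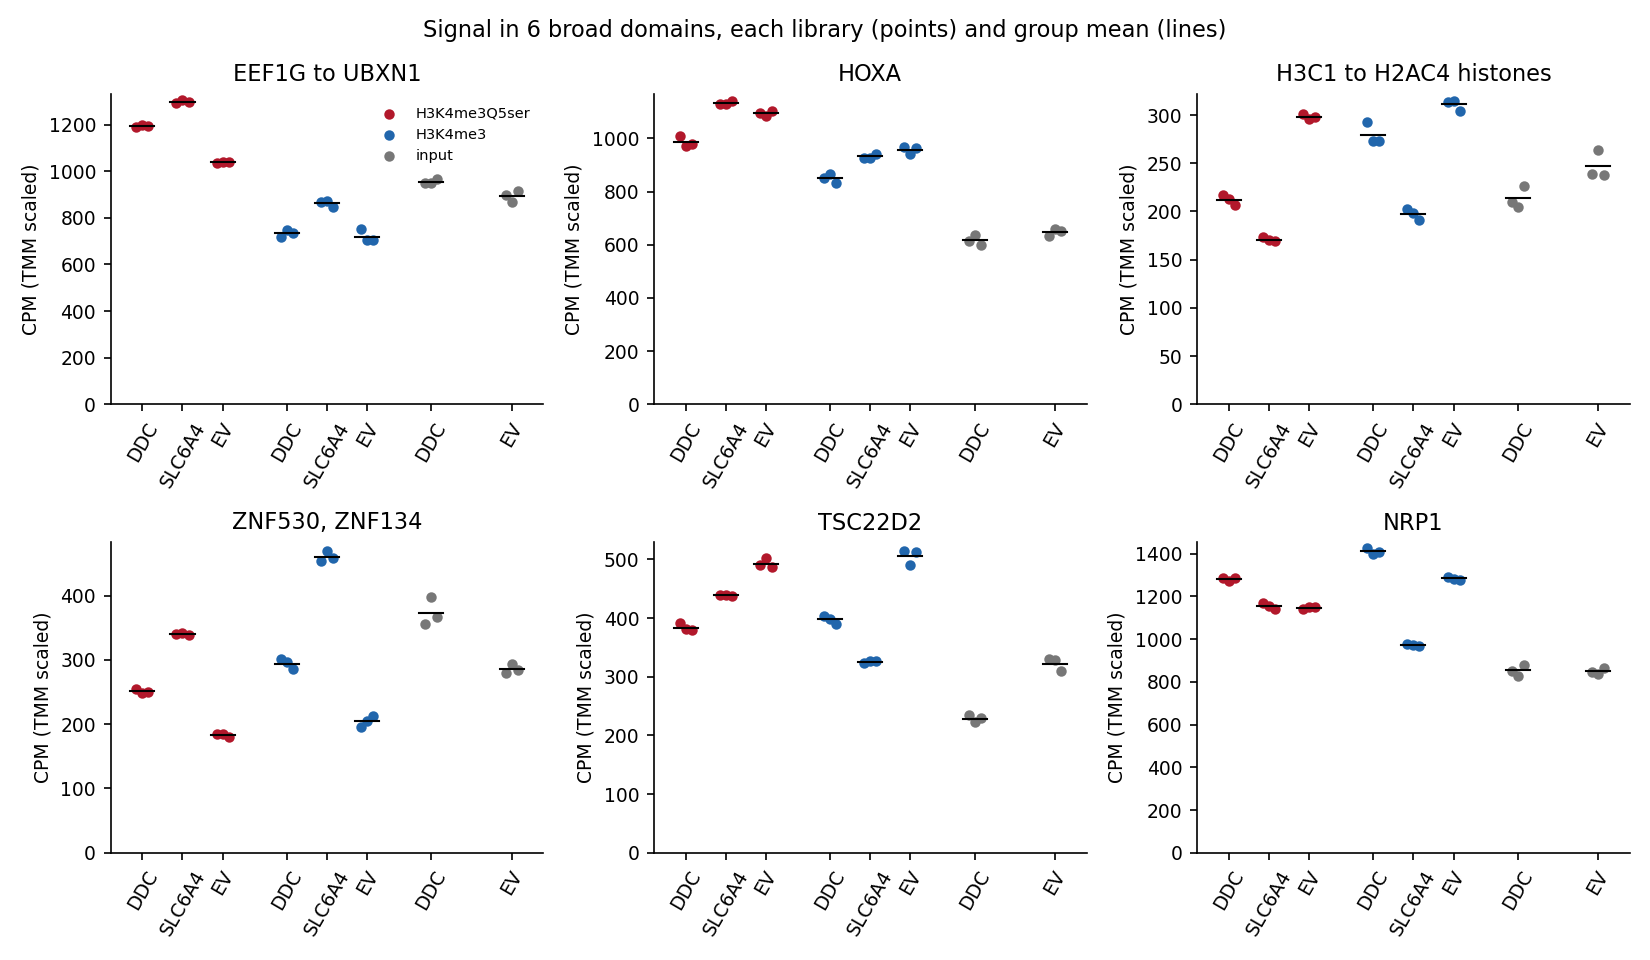
CPM (vertical axis, from 0) of H3K4me3Q5ser, H3K4me3 and input in 6 domains, with 1 point per library and a line at the mean of 3 libraries, for DDC cells, SLC6A4 cells and EV from left to right. At ZNF530 and ZNF134 input of DDC cells (356 to 398 CPM) lies above input of EV (279 to 293 CPM), and at the histone genes H3C1 to H2AC4 both lines lie below EV in both marks.

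The second comparison asks the same of SLC6A4 overexpression. The median change of each mark was larger than in DDC cells, and most calls were shared by both marks. H3K4me3Q5ser was higher in SLC6A4 cells than in EV in 494 domains and lower in 147, against 41.0% and 41.5% of all regions; the median was 0.28, against -0.008 over all regions, and 148 were at least 1.5-fold higher and 8 at least 1.5-fold lower (13.5% and 17.1% of all regions). H3K4me3 was higher in 428 and lower in 138, against 31.9% and 29.6% of the regions tested, with a median of 0.208. Both marks were higher in 416 domains and both lower in 115, again without a joint count over all regions. H3K4me3Q5ser relative to H3K4me3 was higher in 277 (40.3%) and lower in 78 (11.3%), against 14.5% and 14.7% of all regions, with a median of 0.069. Regions of 10 to 15 kb, just under the limit, were much the same, with 37.4% higher, 8.04% lower and a median of 0.093. Scaled by library totals the domain counts were 138 and 167, against 1428 and 4661 over all regions. The median of the domains was then -0.019, where the median over all regions moved to -0.101. The DDC and SLC6A4 comparisons share the EV libraries.

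GC content moved with the SLC6A4 change. In 4 groups of 172 domains from the lowest GC (36.1% to 44.8%) to the highest (53.4% to 66.9%), the median H3K4me3Q5ser change in SLC6A4 cells was -0.16, 0.22, 0.34 and 0.64, and that of H3K4me3 was -0.18, 0.14, 0.30 and 0.46. In DDC cells the medians for H3K4me3Q5ser were 0.02, 0.16, 0.15 and 0.13, and for H3K4me3 0.06, 0.08, 0.03 and -0.05. With GC offsets the SLC6A4 medians were 0.22, 0.18, 0.14 and 0.22 for H3K4me3Q5ser and 0.03, 0.10, 0.08 and 0.09 for H3K4me3, and the counts were 511 higher and 114 lower for H3K4me3Q5ser and 315 and 104 for H3K4me3. The medians over all 688 domains were then 0.191 and 0.08. Over all regions, 7878 were higher and 6543 lower with GC offsets for H3K4me3Q5ser, and 3751 and 4275 for H3K4me3. Their medians were 0.031 and -0.023. The part of GC content in the difference between the lines was not tested further, and no input of the SLC6A4 line was at hand to set beside it.

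**Figure D3:**
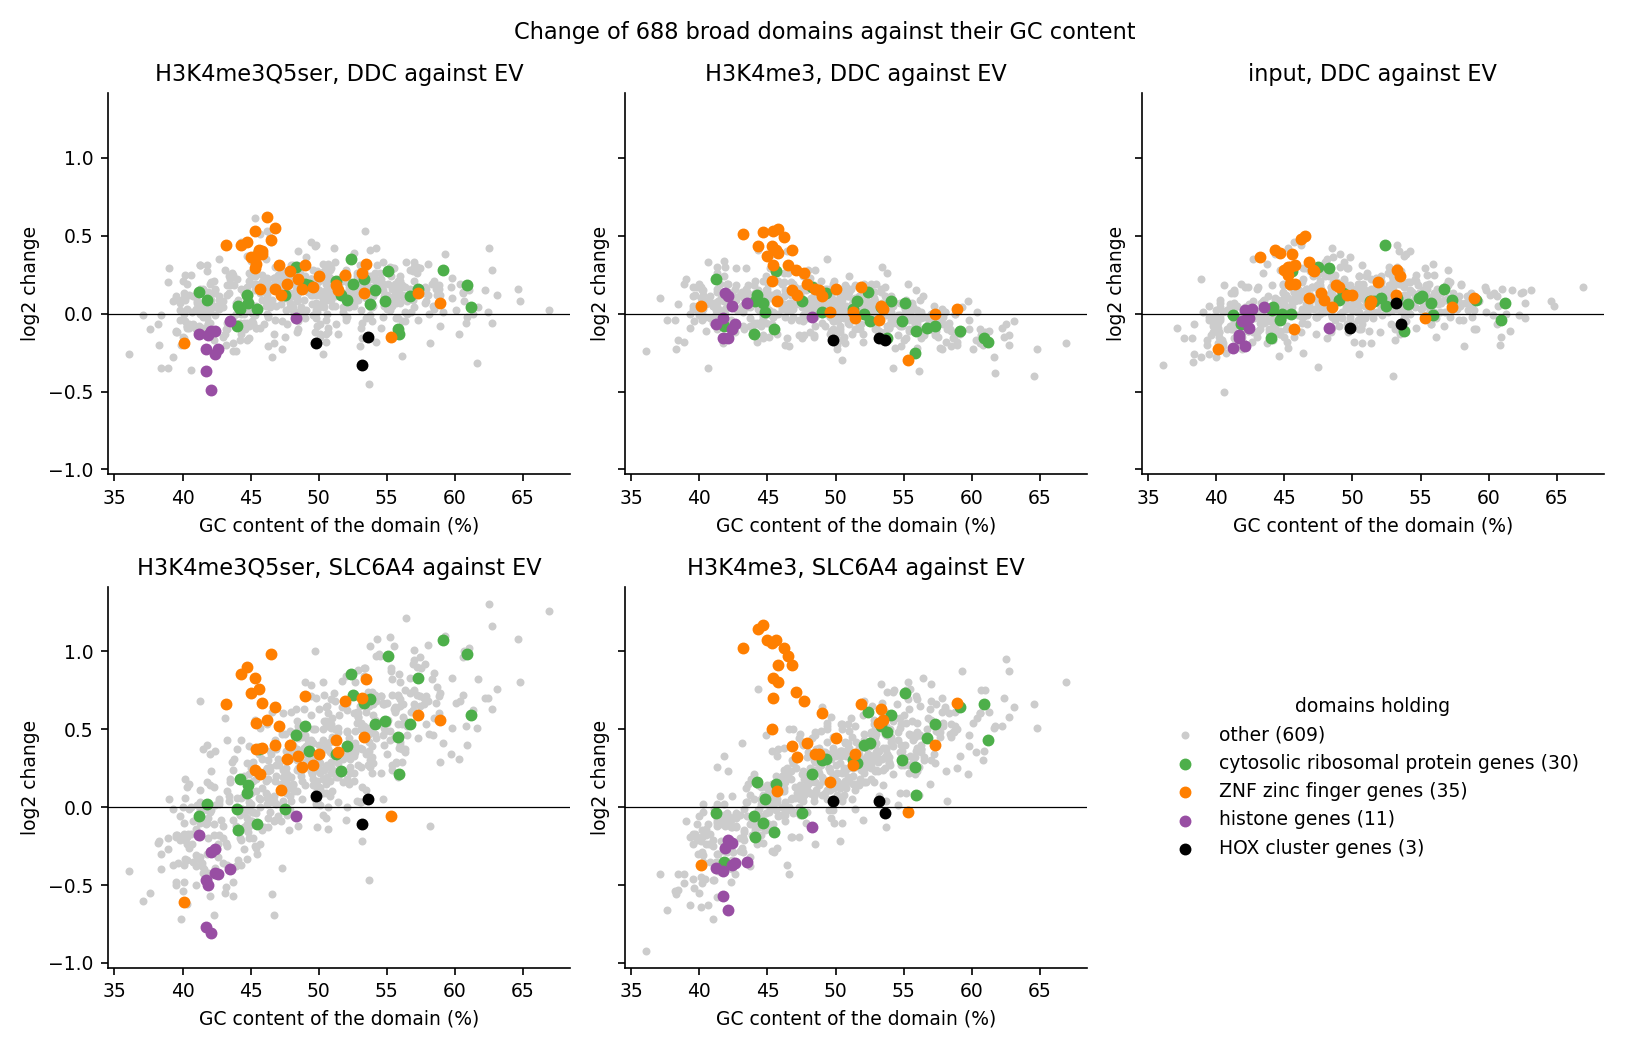
Log2 change against EV (vertical axis) of each of 688 domains against its GC content in percent (horizontal axis), for H3K4me3Q5ser, H3K4me3 and input in DDC cells (upper row) and both marks in SLC6A4 cells (lower row), with 4 gene families in colour and 1 colour a domain, so that 35 of the 37 ZNF domains show as such. In SLC6A4 cells the points climb from a median of -0.16 in the group of lowest GC to 0.64 in the highest for H3K4me3Q5ser, the histone gene domains sit low on the left, and most ZNF domains lie above 0.

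Among the named domains, large rises in SLC6A4 cells lay both at high GC content and in ZNF clusters of chromosome 19. The CPSF1 domain on chromosome 8 had 704, 711 and 706 CPM of H3K4me3Q5ser in DDC cells, 1057, 1066 and 1051 in SLC6A4 cells and 643, 641 and 646 in EV, and its GC content is 60.6%. Its SLC6A4 change was 0.72, and 0.21 with GC offsets. The domain of EXOSC4, GPAA1, CYC1 and SHARPIN changed by 0.65, and by 0.23 with GC offsets. In the ZNF530 and ZNF134 domain, whose GC content is 44.7%, the changes with GC offsets were 1.01 for H3K4me3Q5ser and 1.24 for H3K4me3, no smaller than without them. The domains of ZNF550, ZIK1 and ZNF416 and of ZNF17, both nearby on chromosome 19, had H3K4me3 changes of 1.07 and 1.05 in SLC6A4 cells.

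Several domains separated the marks in SLC6A4 cells. At NRP1, H3K4me3 was 1425, 1399 and 1407 CPM in DDC cells, 978, 972 and 969 in SLC6A4 cells and 1293, 1283 and 1277 in EV. H3K4me3 thus fell in SLC6A4 cells by 0.40 while H3K4me3Q5ser was within 0.01 of EV, a relative change of 0.41 ± 0.010 (SE; adjusted p = 5.37e-120, edgeR), and with GC offsets H3K4me3 fell by 0.20. At TSC22D2, H3K4me3 fell by 0.63 and H3K4me3Q5ser by 0.17, and with GC offsets H3K4me3 fell by 0.33 and H3K4me3Q5ser was 0.30 higher. At the long noncoding RNA MIR31HG (chr9:21547974-21571959), which hosts the microRNA miR-31 and has the lowest GC content of all domains, H3K4me3 was 350, 384 and 369 CPM in DDC cells, 227, 230 and 231 in SLC6A4 cells and 438, 429 and 436 in EV. Its H3K4me3 fell by 0.92 in SLC6A4 cells, and by 0.35 with GC offsets. In the other direction, at LIX1L, ANKRD34A and POLR3GL H3K4me3Q5ser fell in SLC6A4 cells by 0.69 and H3K4me3 by 0.19, a relative change of -0.50 ± 0.039 (SE; adjusted p = 4.71e-27, edgeR), and GC offsets left these at -0.70 and -0.22. At ZNF440 H3K4me3 rose by 0.91 and H3K4me3Q5ser by 0.38.

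Set directly against each other, DDC cells were lower than SLC6A4 cells in most domains. H3K4me3Q5ser was higher in DDC cells in 194 domains and lower in 430, against 38.0% and 38.9% of all regions, with a median of -0.149, and H3K4me3 in 167 and 404, against 29.3% and 30.9%, with a median of -0.176. At least 1.5-fold lower were 58 domains in H3K4me3Q5ser and 72 in H3K4me3 (10.5% and 11.1% of all regions). With GC offsets the medians were -0.08 and -0.056. TOGARAM1, a gene of primary cilia, lay at the other end: its H3K4me3Q5ser was 507, 492 and 504 CPM in DDC cells and 338, 335 and 329 in SLC6A4 cells, a difference of 0.58 ± 0.015 (SE; adjusted p = 3.05e-63, edgeR). With GC offsets, TOGARAM1 H3K4me3Q5ser stood 0.18 over EV in both lines. In the ERO1A and PSMC6 domain, which pairs an oxidase of disulfide bond formation with a proteasome subunit, H3K4me3 was 680, 659 and 696 CPM in DDC cells and 480, 471 and 458 in SLC6A4 cells, a difference of 0.53. The ERO1A change of H3K4me3 against EV was 0.03 in DDC cells and -0.19 in SLC6A4 cells with GC offsets.

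RNA was then set beside the marks. Coding genes that start in the domains were mostly expressed: in EV replicate 1 their median was 2.78 TPM, against 0.667 for coding genes starting in shorter regions and 0 for those in no region, and 67.4%, 41.8% and 7.75% reached 1 TPM. Across the 9 libraries the median of the domain genes ranged from 2.69 to 2.98 TPM. In bulk RNA, fewer cells with a transcript and less transcript per cell cannot be told apart.

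More genes of the domains rose than fell in DDC cells. Of 1538 genes tested, 254 rose (16.5%) and 66 fell (4.29%) in DDC cells against EV (limma on log2 of the normalised value plus 1, Benjamini-Hochberg adjustment), where 8.94% and 8.41% of all genes tested did, and the median was 0.114, against 0.007 over all 13146 genes. The number that fell was 37 without EV replicate 2, 40 without EV replicate 3 and 41 without DDC replicate 2. This balance depended on the scaling. With recovered reads scaled by library totals, 136 rose and 146 fell, the median over all genes was -0.118 and that of the domain genes -0.009. The domain genes lay above the median of all genes by about the same distance under both scalings. In SLC6A4 cells 240 rose (15.6%) and 115 fell (7.48%), where 10.2% and 9.28% of all genes did, with a median of 0.054 against 0.005; without EV replicate 2, 70 fell. Most calls in DDC cells were rises, and of 60 domains with at least 2 called genes, 47 had all of them higher, 6 all lower and 7 both. In SLC6A4 cells the 71 such domains split into 39, 15 and 17. Overlapping genes that may share reads count among these.

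RNA changes followed the H3K4me3Q5ser change of the domain weakly in DDC cells. Of 1101 genes in domains with higher H3K4me3Q5ser in DDC cells, 223 rose and 32 fell; of 239 genes in domains with lower H3K4me3Q5ser, 18 rose and 23 fell. The Spearman correlation over 1538 genes in 653 domains was 0.261, and genes of 1 domain share its value. In SLC6A4 cells, 204 of 1166 genes in domains with higher H3K4me3Q5ser rose and 86 fell, 24 of 276 in domains with lower H3K4me3Q5ser rose and 20 fell, and the correlation was 0.101. The mark changes set beside RNA here and in what follows carry no GC offsets. For H3K4me3 it was 0.1 in DDC cells and 0.086 in SLC6A4 cells.

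**Figure D4:**
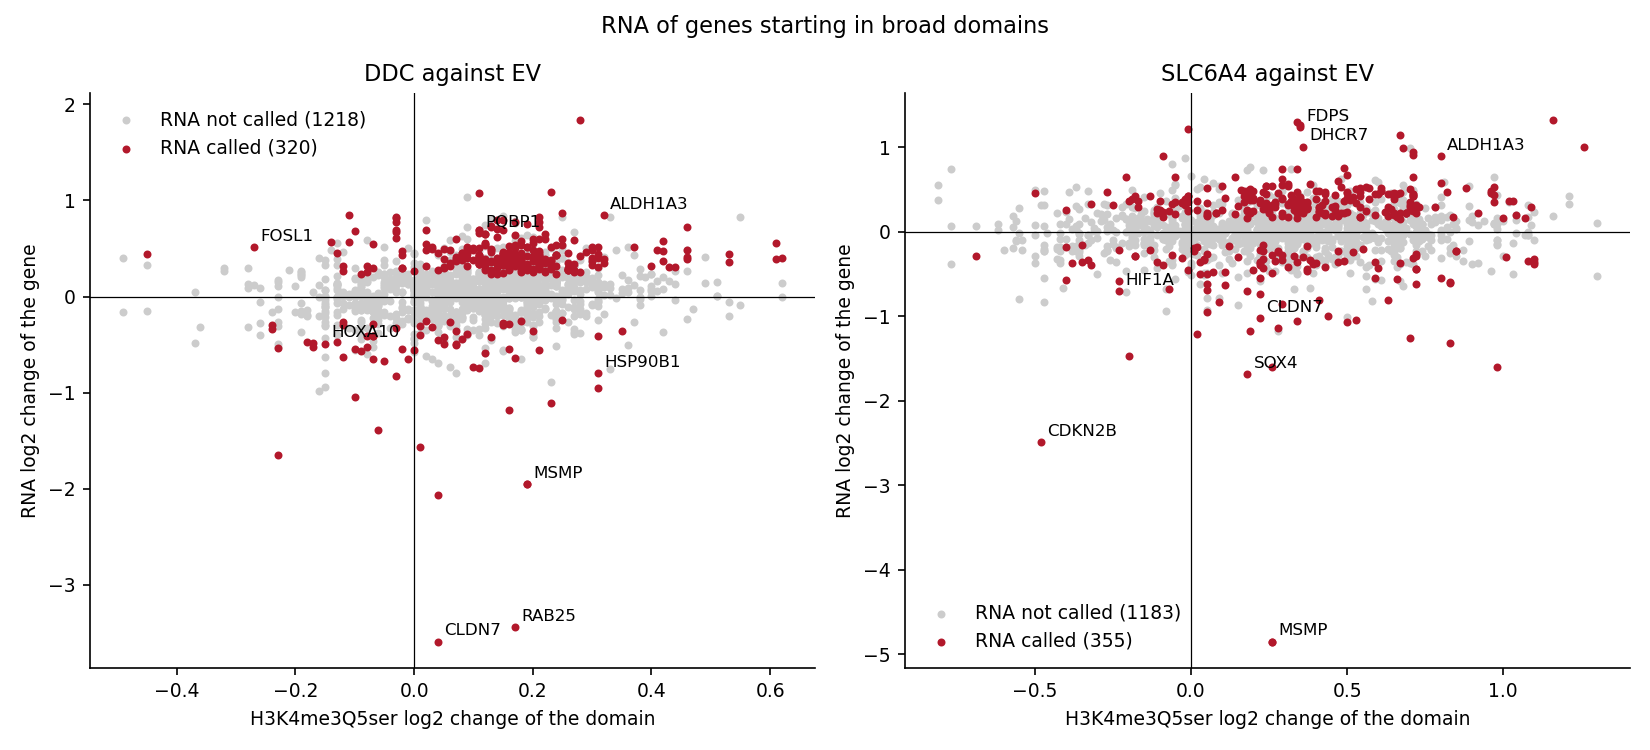
RNA log2 change of each gene that starts in a broad domain (vertical axis) against the H3K4me3Q5ser log2 change of that domain (horizontal axis), in DDC cells on the left and SLC6A4 cells on the right, both against EV, with called genes in red. The cloud is nearly flat (Spearman 0.261 and 0.101), and CLDN7 and MSMP lie far below it, though H3K4me3Q5ser of their domains was not lower.

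Proteasome subunit genes gave more rises than falls. Of 13 proteasome subunit genes in the domains, 7 rose and 0 fell in DDC cells (median 0.23) and 8 rose and 0 fell in SLC6A4 cells (median 0.26), where 16.5% and 15.6% of all domain genes rose. PSMB3, a subunit of the catalytic core, had 29292, 30113 and 36230 normalised reads in DDC cells, against 20134, 19957 and 19113 in EV. The DDC libraries lay above all EV libraries (0.69 ± 0.089, SE; adjusted p = 6.24e-06, limma). PSMC5, an ATPase of the regulatory particle whose gene overlaps FTSJ3, rose by 0.49 in DDC cells and 0.63 in SLC6A4 cells. Scaled by library totals, the proteasome genes gave 5 rises and 1 fall in DDC cells and 7 and 1 in SLC6A4 cells. Of 31 ribosomal protein genes, 5 rose and 0 fell in DDC cells (median 0.12; 4 and 4 with a median of -0.01 by library totals), and 9 rose and 1 fell in SLC6A4 cells (median 0.06), and the DDC count is near the share over all domain genes. EIF6, which keeps ribosomal subunits apart, rose by 0.44 and 0.48.

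ALDH1A3, a retinaldehyde dehydrogenase, had 772, 668 and 654 normalised reads in DDC cells, against 336, 391 and 433 in EV, and 770, 724 and 784 in SLC6A4 cells, against 353, 412 and 456 in EV as scaled in that table. Both lines lay above EV without overlap, by 0.85 and 0.90 (adjusted p = 1.85e-06 and 8.29e-07, limma), and the H3K4me3Q5ser of its domain was higher by 0.32 and 0.80. PQBP1, a splicing-linked protein, rose by 0.66 and 0.74, and TOMM34, a mitochondrial import chaperone, by 0.68 and 0.65. The TOMM34 domain went the other way in H3K4me3Q5ser, at -0.10 in DDC cells and -0.21 in SLC6A4 cells. METTL1, a tRNA methyltransferase, rose by 0.83 in DDC cells and 0.48 in SLC6A4 cells, and MLLT11 by 0.73 and 0.39.

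FDPS and DHCR7, both genes of cholesterol synthesis, rose in SLC6A4 cells. FDPS, which makes farnesyl diphosphate and whose promoter is among those printed, had 10702, 10726 and 10507 normalised reads in SLC6A4 cells, against 4344, 4729 and 4462 in EV (1.24 ± 0.050, SE; adjusted p = 4.59e-12, limma). It overlaps the antisense RUSC1-AS1, which rose by 1.27, and reads of the pair may be shared. DHCR7, which makes the last step to cholesterol, had 717, 742 and 792 in SLC6A4 cells, against 395, 391 and 335 in EV, a change of 1.01. In DDC cells FDPS changed by 0.30, a call lost without EV replicate 1 (0.28), and DHCR7 by 0.13 with no call. In the domains of both genes, H3K4me3Q5ser was higher in SLC6A4 cells, by 0.35 and 0.36, and H3K4me3 by 0.30 and 0.34.

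Large falls of RNA at MSMP, CLDN7 and RAB25 came without a fall of either mark summed over their domains. Each mark value covers the whole domain, and a change at a single promoter inside it was not tested. MSMP, a secreted microprotein first found in PC3 cells, had 40270, 38271 and 52635 normalised reads in DDC cells, against 160093, 169112 and 171267 in EV, and 6427, 5935 and 5931 in SLC6A4 cells, against 168024, 178208 and 180451 in EV. MSMP fell by 1.95 in DDC cells and fell by 4.85 in SLC6A4 cells, yet H3K4me3Q5ser of its domain was higher, by 0.19 and 0.26, and H3K4me3 changed by 0.11 with no call and by 0.25. RGP1 overlaps MSMP and shows nearly the same reads, so its values cannot be told apart from those of MSMP. CLDN7, a tight junction claudin, had 14.2, 8.6 and 10.7 in DDC cells, against 163, 142 and 127 in EV, and 72.5, 91.6 and 60.4 in SLC6A4 cells, against 171, 150 and 134 in EV. It fell by 3.59 and 1.02 (adjusted p = 7.72e-12 and 9.88e-05, limma), while H3K4me3Q5ser of its domain changed by 0.04 and 0.22, and H3K4me3 by 0.00 with no call and by 0.29. RAB25, an epithelial recycling GTPase, was called lower in both lines, with 0.975 to 1.07 normalised reads in DDC cells, 4.67 to 8.59 in SLC6A4 cells and 15.9 to 32.7 in EV. H3K4me3Q5ser of the RAB25 domain was higher by 0.17 in DDC cells and 0.26 in SLC6A4 cells, and H3K4me3 changed by 0.01 with no call and by 0.26.

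SOX4, a developmental transcription factor, had 4263, 3875 and 4707 normalised reads in DDC cells, against 7095, 7253 and 5893 in EV, and 2302, 2094 and 2239 in SLC6A4 cells, against 7447, 7644 and 6209 in EV. It fell by 0.65 in DDC cells and fell by 1.68 in SLC6A4 cells, and its domain changed in H3K4me3Q5ser by -0.01 and 0.18. HSP90B1, a chaperone of the endoplasmic reticulum, fell by 0.80 and 0.47, and the row of MIR3652 lies inside it. The HSP90B1 domain was higher in both marks in DDC cells (0.31 and 0.26). In SLC6A4 cells it changed by 0.11 in H3K4me3Q5ser and -0.12 in H3K4me3. HIF1A, the hypoxia factor, fell by 0.65 and 0.70; its domain was lower in SLC6A4 cells in both marks (-0.23 and -0.54). FUT11, a fucosyltransferase, fell by 0.73 and 0.83, while H3K4me3Q5ser of its domain was higher by 0.10 and 0.09. In SLC6A4 cells MED24, a Mediator subunit, fell by 0.85 and CHMP2A, of the ESCRT-III complex, by 0.56. H3K4me3Q5ser in those cells was 0.29 higher in the MED24 domain and 0.66 higher in the CHMP2A domain. CDKN2B, a cell cycle inhibitor, had 4.77, 0 and 2.05 normalised reads in SLC6A4 cells, against 14.8, 11.2 and 15.1 in EV, and both marks of its domain were lower (-0.48 and -0.64).

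Among the other listed regulators, FOSL1, an AP-1 subunit, rose by 0.51 in DDC cells and 0.36 in SLC6A4 cells, while its domain was lower in both marks in DDC cells (-0.27 and -0.37). In SLC6A4 cells the FOSL1 domain was 0.37 higher in H3K4me3Q5ser, and H3K4me3 changed by 0.08 with no call. Of 4 HOX genes tested, 1 fell in DDC cells and 2 in SLC6A4 cells. HOXA10 had 55.9, 67.7 and 59.5 normalised reads in DDC cells, against 93.4, 87 and 78.5 in EV, a fall of 0.49, and it fell by 0.69 in SLC6A4 cells; it overlaps HOXA9, and the DDC call was lost without DDC replicate 1 or 3 or EV replicate 1 or 2 (-0.43 to -0.49). HOXA13 had 12.4, 9.35 and 8.18 in SLC6A4 cells, against 20, 22.4 and 17.8 in EV, a fall of 0.95 that lost its call without SLC6A4 replicate 2 or 3 or EV replicate 1 or 2 (-0.83 to -0.95). INHBA, the activin subunit gene, fell by 0.53 and 0.31, and SLC3A2, the heavy chain of an amino acid transporter that carries tryptophan, rose by 0.42 and 0.18, the SLC6A4 call being lost without SLC6A4 replicate 2 or 3 or EV replicate 2 or 3 (0.16 to 0.19). The histone genes H2AC18 and H2AC19, near-identical copies whose reads can be split between them, rose by 0.82 and 0.83 in DDC cells, in a domain whose H3K4me3Q5ser changed by -0.03. Of 39 ZNF genes tested, 2 rose in DDC cells, and the median change in SLC6A4 cells was -0.03.

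CUT&Tag of H3K4me3, a tagmentation assay of antibody-bound chromatin, gave CPM over listed peaks in single libraries, so the differences have no replicate check. In the 638 domains with a listed peak the median summed signal was 78.3 CPM in SLC6A4 cells with TGM2 knocked down, 81.2 CPM in SLC6A4 cells and 72.6 CPM in control cells. The median log2 difference of SLC6A4 cells from control was 0.175 in the domains and 0.103 in 9170 shorter regions. With TGM2 knocked down the difference from SLC6A4 cells was -0.044 in the domains and -0.087 in shorter regions. No domain differed by 1.5-fold upward in either of these pairs, and 1 did downward in each. The authors' table covers peaks that it names as not dependent on Q5, and other peaks are not in these sums.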

How the data were processed

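PC3 cells overexpressing DDC or SLC6A4 or carrying the empty vector (EV) were measured by ChIP, RNA sequencing and CUT&Tag, and grouped as the labels give them. In the deposited ChIP table the values are estimated counts of fragments in each region, made with featureCounts 2.0.3 sharing multiple hits as fractions, per the file headers; 9.78% of its values are not whole, and all were rounded. Its command line, per the file headers, carries a strand setting although the regions have no strand. The deposited RNA tables hold DESeq2-normalised signal (reads divided by a size factor), and reads were recovered from it, with 100.0% of the values whole. The same deposited tables carry p-values, scores of the Wald test and log2 fold changes by the authors, none of which was used. CUT&Tag was deposited as CPM at each peak, without totals. Alignment used HISAT2 2.1.0 and Bowtie2 on GRCh38 and peak calling MACS2, per the submitters' processing notes; the peak lists give positions only.

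ChIP was tested with edgeR 4.0.16 (quasi-likelihood, TMM scaling, edgeR's low-count filter) over all regions, with the mark and line interaction for relative changes. RNA was tested with limma 3.58.1 (trend) on log2(value + 1) for genes that reached 10 in 3 or more libraries, since the values are normalised; this scale understates low genes. Adjusted p-values are Benjamini-Hochberg, two-sided, with a threshold of 0.05. For limma, SE is that of the fit. For edgeR, SE is the size of the log2 change divided by the square root of F. At domains with many reads the edgeR SE can lie below counting error, and SE and p-values then overstate the precision. The scripts were tested on simulated data. DESeq2 1.42.0, other scalings, filters, pseudocounts, left-out libraries, GC offsets and changes relative to input served as alternatives. Peaks overlapped by at least 1 bp (bedtools 2.31.1). Python 3.11.15, R 4.3.3 and GENCODE version 44 were used.

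The members and lists were chosen with earlier results of these data known, and the gene families and printed sequences after values were seen. Domains were named if among the 5 longest, if holding a HOX start, or as up to 3 higher and 3 lower per comparison by adjusted p; genes as the 8 rises and 8 falls per line with the smallest adjusted p and no overlap of groups, and up to 3 called members per list.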

Additional observations from a re-analysis of the deposited data

Results flagged for a closer look

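Both lines were compared with the same EV libraries, and some domains were called in opposite directions in DDC and SLC6A4 cells with a called difference between the lines themselves (edgeR). There were 57 such domains for H3K4me3Q5ser and 73 for H3K4me3. The matching count over all regions was not made, so whether the domains exceed it is not known. For H3K4me3Q5ser, 29.7% of all regions were higher and 31.5% lower in DDC cells. In SLC6A4 cells the shares were 41.0% and 41.5%. Among the named domains, the H3K4me3Q5ser difference of DDC cells from SLC6A4 cells on the log2 scale was -0.20 at HOXA, 0.24 at SEC24C, 0.39 at ERO1A and PSMC6, -0.26 at HOXB13, -0.33 at GALK1, UNK and H3-3B, and 0.52 at ZFYVE26 and RAD51B. For H3K4me3 it was -0.70 at CPSF1, 0.15 at SEC24C, -0.74 at MFSD3 and RECQL4, 0.54 at TOGARAM1 and 0.54 at NRP1. At SEC24C, a cargo adaptor of COPII vesicles, H3K4me3Q5ser was 1143, 1131 and 1138 CPM in DDC cells, 974, 963 and 955 in SLC6A4 cells and 1064, 1080 and 1069 in EV, so that EV lay between the lines. At MFSD3 and RECQL4, whose domain has 64.8% GC, H3K4me3 was 231, 248 and 259 CPM in DDC cells, 423, 406 and 411 in SLC6A4 cells and 286, 284 and 297 in EV. The part of GC content in these differences was not tested beyond the GC offsets.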

How the results depend on the processing

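Counts are given as higher and lower domains, and median as the median log2 change of the domains minus that of all regions. Relative to input, DDC against EV gave 75 and 8 for H3K4me3Q5ser (median 0.057) and 14 and 6 for H3K4me3 (median -0.039, where it was 0.03). Over all regions the calls were 445 and 629, and 90 and 34. The shallow input enters both comparisons. DESeq2 gave 85 and 45 for H3K4me3 in DDC cells, 36 and 5 for input, and 41 falling genes in DDC and 71 in SLC6A4 cells. With GC offsets the medians were 0.087 for H3K4me3Q5ser, 0.072 for H3K4me3Q5ser relative to H3K4me3 (16 lower) and 0.033 for input in DDC cells; 0.160, 0.059 (relative) and 0.103 (H3K4me3) in SLC6A4 cells; -0.060 and -0.071 between the lines (H3K4me3 106 and 265); and 0.391 for the marks in EV. Library totals gave 138 and 167 for the relative SLC6A4 change and 136 rising and 146 falling genes in DDC cells. Leaving out 1 library gave 37 to 65 falling genes in DDC cells and 70 to 117 in SLC6A4 cells, 17 to 23 lower domains in input (20 without DDC replicate 1 and 17 without DDC replicate 2), and a median of -0.187 to -0.167 for H3K4me3 between the lines. The replicate block moved the counts little (476 and 120 for H3K4me3Q5ser in DDC cells, 264 rising genes). Same-numbered RNA libraries did not deviate together (r -0.0342 to 0.0226). Same-numbered libraries of the marks within a line gave r from -0.0238 to 0.0952. With 3 libraries a group, these values cannot show whether the numbers pair samples. Of the values of named domains and genes, 2848 kept direction and call, 88 lost the call and 27 turned. With GC offsets, H3K4me3Q5ser in SLC6A4 cells turned at HOXA (-0.250; -0.004 with library totals, and 0.084 for DDC against SLC6A4 cells with GC offsets), FUT11 (-0.089), ERO1A (0.106), HOXB13 (-0.079), GALK1 (-0.035), MIR31HG (0.448), TOGARAM1 (0.176), ZFHX4 (0.218) and TSC22D2 (0.300), and H3K4me3 at VARS1 (-0.045), FUT11 (-0.063), MFSD3 (-0.001), TOGARAM1 (0.080) and ZFYVE26 (0.040), and in DDC cells at CPSF1 (0.014). Relative to input, H3K4me3Q5ser in DDC cells turned at HMGN4 (0.005), the chromosome 1 histone genes (0.080), GALK1 (0.112), MIR31HG (0.099), ZNF503 (-0.002) and TSC22D2 (0.161), and H3K4me3 at MIR31HG (0.108), a chromosome 20 domain (0.069), H3C1 (0.067) and TSC22D2 (0.162). The cause of these shifts was not tested. The unplanned alternatives are GC offsets and changes relative to input, both chosen after the data were seen. Input limits depth most, and p-values measure a spread close to counting error, or below it at domains with many reads. The input comparison of SLC6A4 cells was not run.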
